A study of Mus musculus with 5 samples.

Results

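Potassium channels are membrane proteins that let potassium ions leave or enter the cell and so set the voltage across the membrane. Voltage-gated channels are built from pore subunits, some of which are electrically silent and act only as modifiers, and bind accessory subunits. Other families are opened by calcium, conduct inward, or carry a pair of pore domains in each subunit and pass a background current. In blood cells the calcium-activated channel encoded by Kcnn4 is known for potassium loss and volume control in red cells and for calcium signalling in lymphocytes and macrophages, while most voltage-gated members are best known from neurons and heart.

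The genes described here are those whose symbol starts with Kcn in a pair of deposited tables of positions with higher and with lower DNA methylation in G5 than in G0 common myeloid progenitors, the marrow cells that give rise to granulocytes, monocytes, red cells and platelets. They held 81 of 4688 listed positions and 30 of 2797 listed genes. Progenitors were sorted by flow cytometry from the bone marrow of pooled mice and profiled by reduced representation bisulfite sequencing, which measures cytosine methylation in CpG-rich DNA cut out by a restriction digest. The 3 G0 pools carry the genotype TERTER/+ and are labelled normal, and the 2 G5 pools carry TERTER/ER and are labelled as having short telomeres. All 5 pools therefore carry the TERTER allele, a telomerase fused to an oestrogen receptor domain, on a background that the labels give as mainly C576BL/6. How many mice, of which age, made up a pool is not given in the sources used here. A pool held 14000 to 30000 cells, and sequencing gave 29 to 38 M reads per sample with about 63% alignment. As read depth at single positions is unknown, levels are given without counting intervals.

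At Tert, the gene of the engineered allele, 8 listed positions averaged 52.1%, 40.8% and 35.2% in the G0 pools and 87.4% and 87.1% in the G5 pools. Sorting markers cannot be checked as levels in DNA methylation data. Of 8 progenitor marker genes 2 had listed positions, 1 higher and 3 lower. Of 5 T cell markers 1 had 1 higher position, of 5 B cell markers 2 had 2 higher positions, and 5 erythroid and 5 granulocyte and macrophage markers had 0. The part of other cells in the results below was not tested.

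Each position was listed by the authors because it differed between G0 and G5 in these same libraries, with a q-value under 0.01 and a difference over 10 percentage points in either direction. The group differences below are therefore descriptions, and a count of positions is read against the same count over all listed positions.

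Kcns1 and Kcnn4 had the most listed positions, and the sequences that hold nearly all of these are shown for their CpG content. All are given 5′ to 3′ on the plus strand of GRCm38, the assembly of mm10, with the listed CpGs in capitals. The first pair lies in coding exon 3 of Kcns1, a gene read from the minus strand, and the third spans the end of an intron and the start of coding exon 3 of Kcnn4.
Kcns1, chr2:164168614-164168821: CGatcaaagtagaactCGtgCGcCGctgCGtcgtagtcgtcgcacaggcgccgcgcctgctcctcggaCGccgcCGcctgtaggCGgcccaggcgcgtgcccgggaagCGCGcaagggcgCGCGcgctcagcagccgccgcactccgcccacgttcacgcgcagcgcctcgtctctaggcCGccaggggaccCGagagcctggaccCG
Kcns1, chr2:164168121-164168189: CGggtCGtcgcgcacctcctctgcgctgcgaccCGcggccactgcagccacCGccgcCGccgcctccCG
Kcnn4, chr7:24377192-24377402: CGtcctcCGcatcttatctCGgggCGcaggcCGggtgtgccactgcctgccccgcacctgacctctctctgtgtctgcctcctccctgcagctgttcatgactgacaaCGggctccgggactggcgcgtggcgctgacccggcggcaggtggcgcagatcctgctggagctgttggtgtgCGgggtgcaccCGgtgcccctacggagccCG

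The longer Kcns1 stretch holds 36 CpGs in 208 bases, of which 15 were listed, and the shorter holds 13 in 69 bases, of which 6 were listed. The Kcnn4 stretch holds 18 CpGs in 211 bases, with 9 of them listed. CpGs in small letters are in neither table, and their levels are not known. The letters CCGG, the site cut by MspI, the usual enzyme of this assay, lay within 100 bases of 100% of the potassium channel positions and of 100% of all listed positions.

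Potassium channel genes had 50 higher positions in 20 genes and 31 lower positions in 15 genes. Of the 30 genes 15 appeared in the higher table alone, 10 in the lower table alone and 5 in both, and 16 genes had 1 position each. Kcns1 with 22 of the higher and Kcnn4 with 9 of the lower positions had more than any other of these genes, and without them 28 higher and 22 lower positions were left. Taken over all 94 protein-coding genes of RefSeq with a Kcn symbol, 30 were listed. The same share over all protein-coding genes was not taken, and how many of the 94 the assay covered is unknown. The count therefore does not show whether these genes were listed more or less often than others.

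Both G5 pools exceeded every G0 pool at 41 of 50 higher positions (82%), against 86.9% of all listed higher positions, and both were below every G0 pool at 27 of 31 lower positions (87.1%), against 83.9% of all listed lower positions. In limma's moderated test over the 5 pools, with Benjamini-Hochberg adjustment over all 4688 listed positions, 18 of the higher positions (36%) and 10 of the lower positions (32.3%) passed an adjusted p of 0.05. Over all listed positions 33.2% of the higher and 33.0% of the lower ones passed, so the potassium channel genes were called about as often as the tables as a whole. The positions that passed came from 9 genes on the higher side and 5 on the lower side. These limma calls depended on the G0 pools. The loss of calls without a G0 pool ran through the whole tables. Without G0 pool 1 limma called 0 potassium channel positions and 0 of all 4688 listed ones, and the unadjusted p was under 0.05 for 20 higher and 15 lower ones. Without G0 pool 3 limma likewise called 0 in both sets, and 22 and 13 had an unadjusted p under 0.05. Leaving out G0 pool 2 left 1 higher call and 0 lower ones among these genes, against 0.344% of all listed higher positions called, and 22 and 12 had an unadjusted p under 0.05.

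Higher positions of potassium channel genes stood at a median G0 level of 15.2% and a median G5 level of 35.2%, against 38.8% and 61.6% for all listed higher positions. Lower positions stood at 62.1% and 38.6%, against 58.8% and 35.0% for all. Per the authors' deposited table the median size of the difference was 18.2 points at higher and 16.9 points at lower positions, against 16.3 and 16.5 points over all. By the authors' flags 36 of the 50 higher positions (72%) were in a CpG island and 37 (74%) in an exon, against 43.0% and 37.4% of all higher positions. Without Kcns1 the shares were 53.6% and 57.1%. Of the 31 lower positions 12 (38.7%) were in an island and 16 (51.6%) in an exon, against 28.2% and 26.6% of all lower positions. These differences from the whole tables were not tested. A window of 102 bases around a listed CpG held a median of 12 CpGs at the higher and 7 at the lower potassium channel positions, against 7 and 5 over all. Kcns1 held 22 of the 50 higher positions, with a median of 14.5 CpGs in this window and a range of 7 to 21. The median of 12 thus rests in large part on 1 gene.

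**Figure D1:**
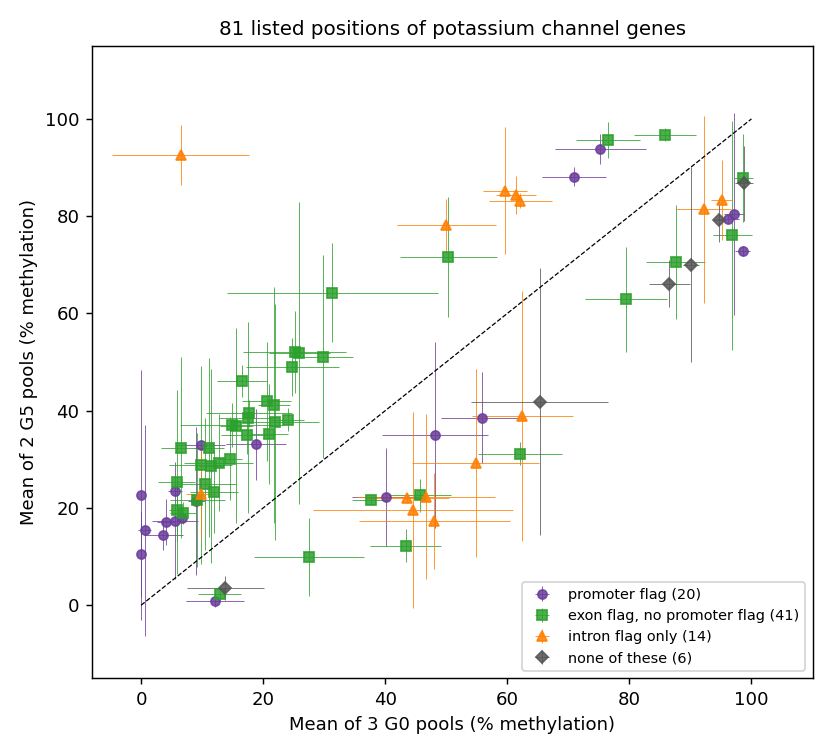
Mean methylation of the 3 G0 pools (x axis, %) against that of the 2 G5 pools (y axis, %) at each of the 81 listed positions, with bars of 1 SD over pools and the dashed line marking equal levels. Colours give the authors' flags. The higher positions lie above the line, with a median G0 level of 15.2%, and the lower ones below it, with a median G0 level of 62.1%.

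A listed gene is the one with the nearest start site, and 68 of the 81 positions lay within the RefSeq bounds of the gene named, 43 of them in coding exons of the named transcript. The other 13 lay outside it. Among these, the lower position named for Kcnd1 fell in a coding exon of Gripap1, which encodes a glutamate receptor interacting protein. The positions named for Kcnd3, Kcnh8 and Kcnj15, a pair named for Kcng1, the far one named for Kcnk12 and the upstream one of Kcnj12 lay in no RefSeq gene, and the one upstream of Kcne1 lay within the predicted transcript Gm30163.

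Electrically silent pore subunits, which do not conduct alone and change the currents of conducting subunits when they assemble with them, held the largest group of positions. Kcns1 is one of them. Its 22 positions lay 2294 to 3320 bp downstream of the start site, 21 in coding exon 3 of 4 exons and in an island, and 1 in the neighbouring intron on a shore. The pools averaged 17.3%, 14.1% and 17.9% in G0 and 38.5% and 33.1% in G5. Both G5 pools were above all G0 pools in the mean, by 19.4 points from a G0 level of 16.4% ± 2.04 (SD, n = 3) to 35.8% ± 3.86 (SD, n = 2).

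The Kcns1 positions were not uniform. In the 15 positions nearest the start site, the G0 pools averaged 14.8%, 11.7% and 16.2% and the G5 pools 41.8% and 28.9%, and G5 pool 1 was above G5 pool 2 at 11 of the 15. In the 6 positions of the shorter stretch the G0 pools averaged 16.8%, 11.8% and 14.6% and the G5 pools 23.2% and 34.4%, and here G5 pool 2 was the higher one at 4 of 6. The intronic position was already at 57.9%, 64.4% and 61.8% in G0 and stood at 81.6% and 87.1% in G5. Both G5 pools were beyond all G0 pools at 13 of 15, 4 of 6 and 1 of 1 positions of these groups, and limma passed 7, 0 and 1 of them. Over all listed higher positions the groups were apart at 86.9% and limma passed 33.2%.

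The Kcns1 position with the smallest limma p was 164168698, where G0 pools read 16.7%, 20.6% and 12.3% and G5 pools 43.8% and 48.5%. The difference there was 29.6 points with a standard error of 4.61 (limma, adjusted p = 0.0412). At 164168733 the G0 pools read 4.55%, 4.81% and 10.2% and the G5 pools 45.6% and 19.3%, so both G5 pools were above G0 but 26 points apart, and the position did not pass. At 164168178 the G0 pools read 30.1%, 16.2% and 19.4%, and G5 pool 1, at 20.5%, lay among them while G5 pool 2 read 54.8%.

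**Figure D2:**
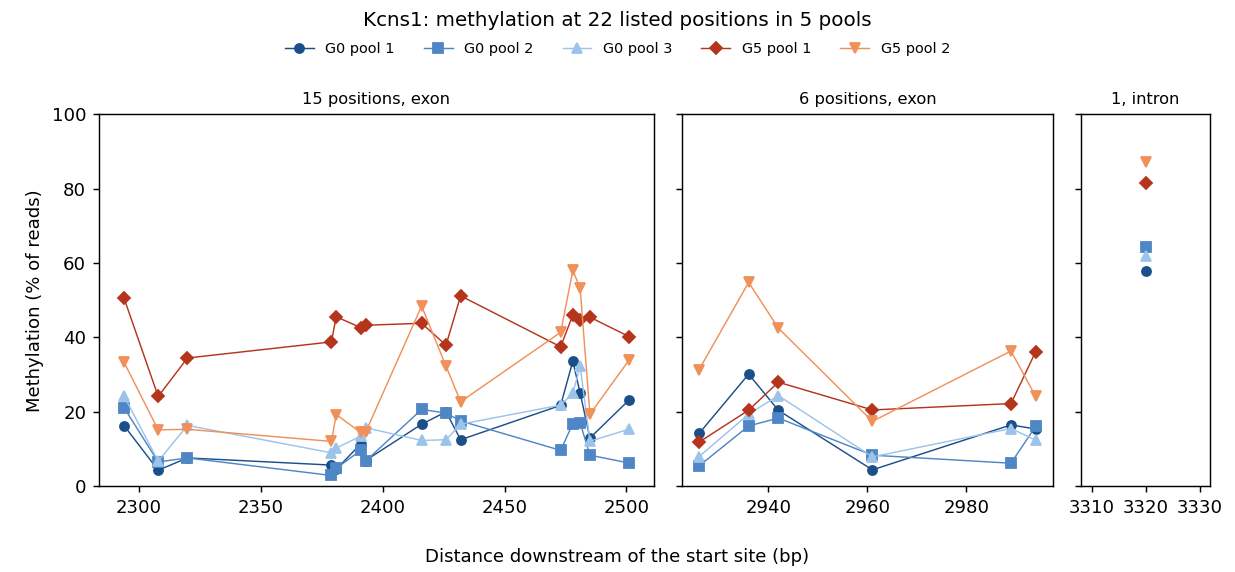
Methylation (y axis, % of reads) of each pool at the 22 listed positions of Kcns1 against distance downstream of the start site (x axis, bp), in 3 panels of 15, 6 and 1 positions. Points are single pools and lines join positions of a pool. G5 pool 1 averages 41.8% in the left panel, where G5 pool 2 averages 28.9%, and the order is turned in the middle panel, at 23.2% and 34.4%.

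The other silent subunits had fewer positions. Kcng1 had 4 lower positions, 2 in coding exon 2 and 2 at 14655 and 14673 bp upstream of the listed start site. The exonic pair, 561 and 577 bp downstream of the listed start site, carries the authors' promoter and island flags, and the upstream pair carries neither. RefSeq starts the named transcript, read from the minus strand, at 168281106, between the 2 pairs. The listed distances and the promoter flag therefore do not refer to that start. The sequences around both pairs hold 3 CpGs in 38 bases and 2 in 40 bases, and are shown to set them beside those of Kcns1, on the plus strand with the listed CpGs in capitals.
Kcng1 exon, chr2:168268746-168268783: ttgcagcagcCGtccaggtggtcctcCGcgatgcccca
Kcng1 upstream, chr2:168283975-168284014: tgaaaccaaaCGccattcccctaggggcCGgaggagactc

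The exonic Kcng1 pair averaged 98.0%, 96.9% and 97.2% in the G0 pools and 76.8% and 75.6% in the G5 pools. The upstream pair averaged 87.5%, 89.5% and 87.9% in G0 and 59.3% and 76.8% in G5. Almost full methylation in G0 was thus lower in both G5 pools at both places, and the G5 pools were close to each other in the exon and 17.5 points apart upstream. The mean over the 4 positions was 92.8% ± 0.33 (SD, n = 3) in the G0 pools but 72.1% ± 5.78 (SD, n = 2) in the G5 pools. Limma passed 3 of 4, against 33.0% of all listed lower positions, the smallest adjusted p being 0.0412 at 168268771.

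Kcng2 had 2 exonic island positions 24 bp apart in coding exon 3 that were listed in opposite directions. The one at 80323049 read 9.28%, 16.4% and 13.1% in G0 and 3.36% and 1.23% in G5. The one at 80323073 read 11.5%, 16.1% and 8.39% in G0 and 29.4% and 17.3% in G5. The G0 levels of both CpGs overlapped, and the G5 pools lay below them at the first and above them at the second, although neither position passed limma, with adjusted p of 0.0733 and 0.0963.

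Kcng4 had 2 higher positions 35 bp apart in island sequence of coding exon 2, which started from unlike levels. At 119632983 the G0 pools read 82.5%, 73.3% and 73.7% and the G5 pools 93.1% and 98.3%, and this position passed limma (adjusted p = 0.0456). At 119633018 the G0 pools read 11.9%, 37.8% and 44.4% and the G5 pools 71.4% and 57.1%. This was the largest difference after Kcnab2, 31.5 points in the authors' deposited table, but with G0 pool 1 far below the other G0 pools it did not pass limma.

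Kcnf1, Kcng3 and Kcns3 each had an island position near the start site that was nearly unmethylated in G0. The Kcnf1 position, 503 bp downstream, was at 0% in all 3 G0 pools and at 16.7% and 4.35% in G5. Kcns3 was likewise at 0% in all G0 pools, 107 bp downstream of its start site, and at 4.55% and 40.9% in G5. At Kcng3, 97 bp downstream, the G0 pools read 1.01%, 7.14% and 2.78% and the G5 pools 12.2% and 16.7%. None of these 3 positions passed limma, although both G5 pools were above all G0 pools at each. A second Kcnf1 position, in the coding exon on a shore, was at 86.2%, 80.6% and 90.7% in G0 and 95.8% and 97.8% in G5. The Kcns3 difference of 22.7 points was 4.55 points without G5 pool 2 and 40.9 points without G5 pool 1.

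Other voltage-gated pore subunits had scattered positions. In Kcnc1, a fast channel of rapidly firing neurons, an exon 1 island position 1353 bp downstream of the start site read 24.9%, 26.2% and 21.0% in G0 and 39.9% and 36.4% in G5 (limma, adjusted p = 0.0496). Another, 637 bp nearer the start site in the untranslated part of the exon, was listed lower, read 6.74%, 15.9% and 13.6% in G0 and 0% and 1.92% in G5, and did not pass.

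Kcnc4, a related fast channel, had a promoter island position with 10.7%, 8.15% and 8.38% in G0 and 10.6% and 32.3% in G5, so that G5 pool 1 lay within the G0 range.

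Among members of the ether-a-go-go family, Kcnh3 had 2 higher promoter positions on a shore. The one 89 bp upstream of the listed start site lay in untranslated exon 1 of the named transcript in RefSeq. It read 14.3%, 8.51% and 6.49% in G0 and 32.9% and 32.8% in G5. With G5 pools that close, the difference of 23.1 points passed limma with a standard error of 4.42 (adjusted p = 0.0416). The other, 222 bp downstream, read 1.96%, 9.48% and 5.19% in G0 and 25.9% and 8.89% in G5. Kcnh6 had an intronic island position at 7.53%, 9.49% and 12.3% in G0 and 16.4% and 29.3% in G5, and Kcnh8 an intergenic one, 83218 bp upstream, at 94.3%, 95.7% and 94.0% in G0 and 82.4% and 76.1% in G5. Of these Kcnh6 did not pass limma and Kcnh8 did (adjusted p = 0.0464). The positions of the fast-inactivating channels Kcnd1 and Kcnd3 lay outside those genes, with differences of -10.0 and -27.5 points in the authors' deposited table. Kcnd3 was at 61.3% in G5 pool 1, inside its G0 range of 52.4% to 71.9%, and at 22.4% in G5 pool 2.

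Among accessory subunits all 6 higher positions passed limma, against 33.2% of all listed higher positions, and so did 1 of 2 lower ones, against 33.0% of all lower ones. The 6 higher positions came from 4 genes, with 3 of them in Kcnab2. The difference from the whole tables was not tested. Kcnab2, a cytoplasmic beta subunit of voltage-gated channels, had the largest difference of any potassium channel position, and the second largest of all 4688 positions. The position is intronic, outside any island, and its surroundings hold only 2 CpGs in 62 bases, as shown here on the plus strand with the listed CpG in capitals.
Kcnab2 intron, chr4:152414413-152414474: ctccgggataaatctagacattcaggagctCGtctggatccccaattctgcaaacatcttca

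It read 0%, 19.4% and 0% in the G0 pools and 88.2% and 96.9% in the G5 pools, a difference of 86.1 points with a standard error of 7.36 (limma, adjusted p = 0.0303). A pair of intronic positions 14 bp apart, named for the same gene and about 42.5 kb away, averaged 54.1%, 63.3% and 50.8% in G0 and 78.2% and 83.1% in G5. A lower position 3683 bp from the first read 96.9%, 95.2% and 93.4% in G0 and 77.5% and 89.2% in G5 and did not pass. Kcnab2 thus held both a difference of 86.1 points at 1 CpG and smaller differences in both directions at its other positions. The first position lies 4093674 bp from the distal end of chromosome 4, and within 1 Mb of it on either side there were 11 higher and 12 lower listed positions, Kcnab2 included.

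Kcne1, a single-pass partner of the cardiac channel Kcnq1, had a promoter position outside islands, 76 bp upstream of its start site. It read 83.9%, 71.7% and 70.2% in G0 and 91.7% and 96.0% in G5 (limma, adjusted p = 0.0497). The related X-linked gene Kcne1l, with an island position in its only exon, read 73.5%, 74.3% and 64.8% in G0 and 86.8% and 89.5% in G5 (limma, adjusted p = 0.0468). Both were already mostly methylated in G0, unlike the other promoter positions listed higher. Kcnip1, which encodes a calcium-binding partner of Kcnd channels, had a lower intronic position, at 37.6%, 42.1% and 51.0% in G0 and 22.9% and 21.4% in G5 (limma, adjusted p = 0.0444). Kcnmb2, a beta subunit of the large-conductance calcium-activated channel, had a higher one 169399 bp downstream of its start site, at 58.2%, 56.9% and 63.6% in G0 and 76.0% and 94.4% in G5 (limma, adjusted p = 0.0453).

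Kcnn4 was the only calcium-activated pore gene listed, and all 9 of its positions were lower. They lay 6931 to 7139 bp downstream of the start site, the first 5 at the end of an intron on an island shore and the last 4 inside coding exon 3 and the island. The pools averaged 67.1%, 53.9% and 53.4% in G0 and 29.5% and 40.2% in G5, so both G5 pools were below all G0 pools. The difference was -23.3 points, from 58.1% ± 7.77 (SD, n = 3) to 34.9% ± 7.58 (SD, n = 2).

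Intron and exon of Kcnn4 differed in which G5 pool was lowest. At the 5 intronic positions the G0 pools averaged 64.5%, 45.3% and 44.1% and the G5 pools 12.4% and 38.5%, and G5 pool 1 was the lower one at all 5. At the 4 exonic positions the G0 pools averaged 70.4%, 64.6% and 65.1% and the G5 pools 50.8% and 42.4%, and G5 pool 2 was the lower one at 3 of 4. G0 pool 1 was the highest G0 pool in both parts. The groups were apart at 4 of 5 intronic and 4 of 4 exonic positions, and limma passed 1 and 2 of them. Over all listed lower positions the groups were apart at 83.9% and limma passed 33.0%.

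The position at 24377382 had the smallest limma p of the 9. Its G0 pools read 69.6%, 56.0% and 60.7% and its G5 pools 32.9% and 29.5%, a difference of -30.9 points with a standard error of 5.36 (limma, adjusted p = 0.0412). At 24377216, where the groups overlapped, the G0 pools read 71.8%, 56.4% and 59.2%, and G5 pool 2 was among them at 57.1% while G5 pool 1 read 20.7%.

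**Figure D3:**
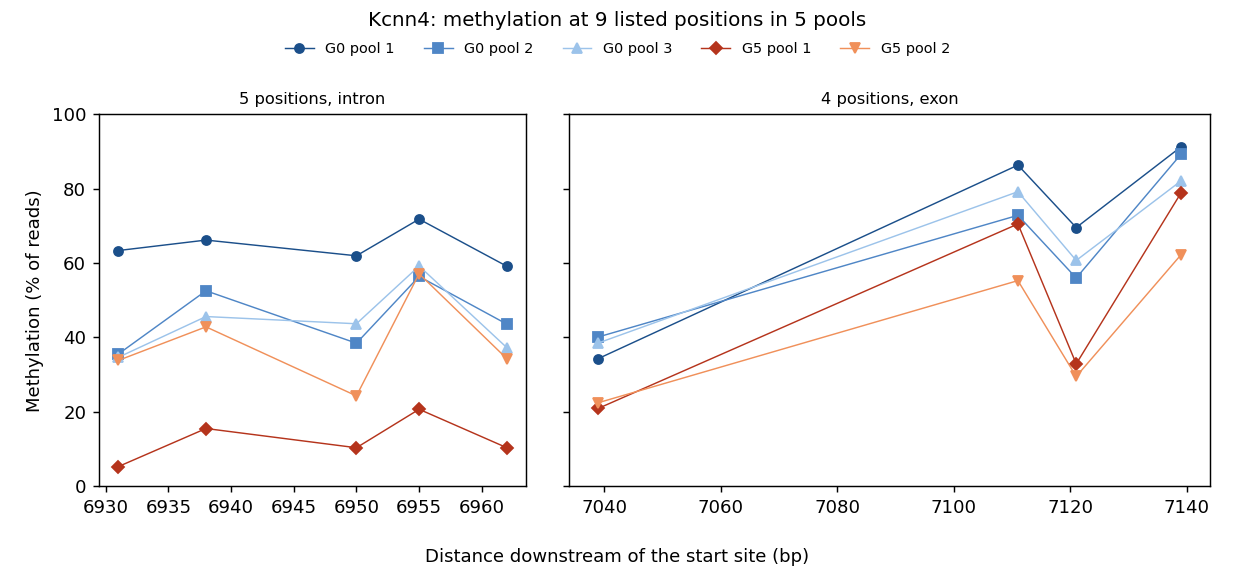
Methylation (y axis, % of reads) of each pool at the 9 listed positions of Kcnn4 against distance downstream of the start site (x axis, bp), with 5 intronic positions on the left and 4 exonic ones on the right. Points are single pools and lines join positions of a pool. G5 pool 1 averages 12.4% in the intron and 50.8% in the exon, and G5 pool 2 averages 38.5% and 42.4%.

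Tandem-pore channels, which pass background currents, were listed in both directions, depending on the gene. Kcnk12, a silent or weakly conducting member, had 3 lower positions within 32 bp in exon 2, where its coding sequence ends. The one at 87745936 lay in the untranslated part and the others in coding sequence. Over the 3 the G0 pools averaged 45.1%, 32.2% and 39.2% and the G5 pools 16.8% and 13.0%. Both G5 pools were below all G0 pools at each of the 3, and limma passed 2, with differences of -23.0 and -31.1 points. Of all listed lower positions 83.9% were apart in this way and 33.0% passed. Its remaining position lay 76983 bp upstream of the start site, at 100%, 99.0% and 97.1% in G0 and 81.2% and 92.2% in G5.

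Kcnk9, an acid-sensitive member, had 2 higher promoter island positions 35 bp apart, 475 and 510 bp upstream of the listed start site. RefSeq places both in untranslated exon 1 of the named transcript. The one at 72546788 read 4.84%, 4.88% and 6.98% in G0 and 24.1% and 22.8% in G5 and passed limma (adjusted p = 0.0432). The one at 72546753 read 0%, 1.75% and 0% in G0, 0% in G5 pool 1 and 30.8% in G5 pool 2. Both G5 pools were thus above G0 at 1 of these neighbouring CpGs, and 1 G5 pool at the other.

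Kcnk1, a weakly conducting member, had an intronic promoter island position at 14.1%, 18.6% and 23.8% in G0 and 38.2% and 28.0% in G5. Kcnk6 had a coding exon position at 55.0%, 41.1% and 55.0% in G0 and 63.0% and 80.3% in G5. Neither passed limma, although the groups did not overlap. Kcnk18, a background channel of sensory neurons, had a lower position at its start site that rested on 1 pool, with 98.7%, 95.4% and 97.2% in G0, 65.7% in G5 pool 1 and 95.1% in G5 pool 2.

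Inward rectifiers had 3 positions. The Kcnj12 promoter island position, 123 bp upstream of a start site, had the closest G5 pools of all 81 positions, with 6.61%, 7.26% and 6.48% in the G0 pools and 18.1% and 18.0% in the G5 pools. The difference of 11.3 points had an adjusted p of 0.0587 in limma, which takes the spread in part from all positions, and did not pass. Kcnj12 had a lower position 46857 bp away in coding exon 3, which read 97.0%, 93.7% and 100% in G0 and 59.4% and 92.7% in G5, and its difference of -20.8 points was -4.19 points without G5 pool 1 and -37.5 points without G5 pool 2. Kcnj15 had an intergenic lower position at 6.94%, 15.3% and 19.2% in G0 and 1.87% and 5.36% in G5, which did not pass limma.

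Over all families, 13 higher positions in 11 genes and 7 lower positions in 4 genes carried the authors' promoter flag. At the 10 higher promoter positions inside islands the median G0 level was 4.82% and the median G5 level 19.7%, both G5 pools were above all G0 pools at 8, and limma passed 2. At the 6 lower ones the median levels were 52.0% and 36.8%, the groups were apart at 5, and limma passed 2. Over all listed positions the groups were apart at 86.9% of the higher and 83.9% of the lower ones, and limma passed 33.2% and 33.0%. The flag reached 764 bp downstream of a start site here, and 6 of the 20 flagged positions lay more than 500 bp downstream.

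**Figure D4:**
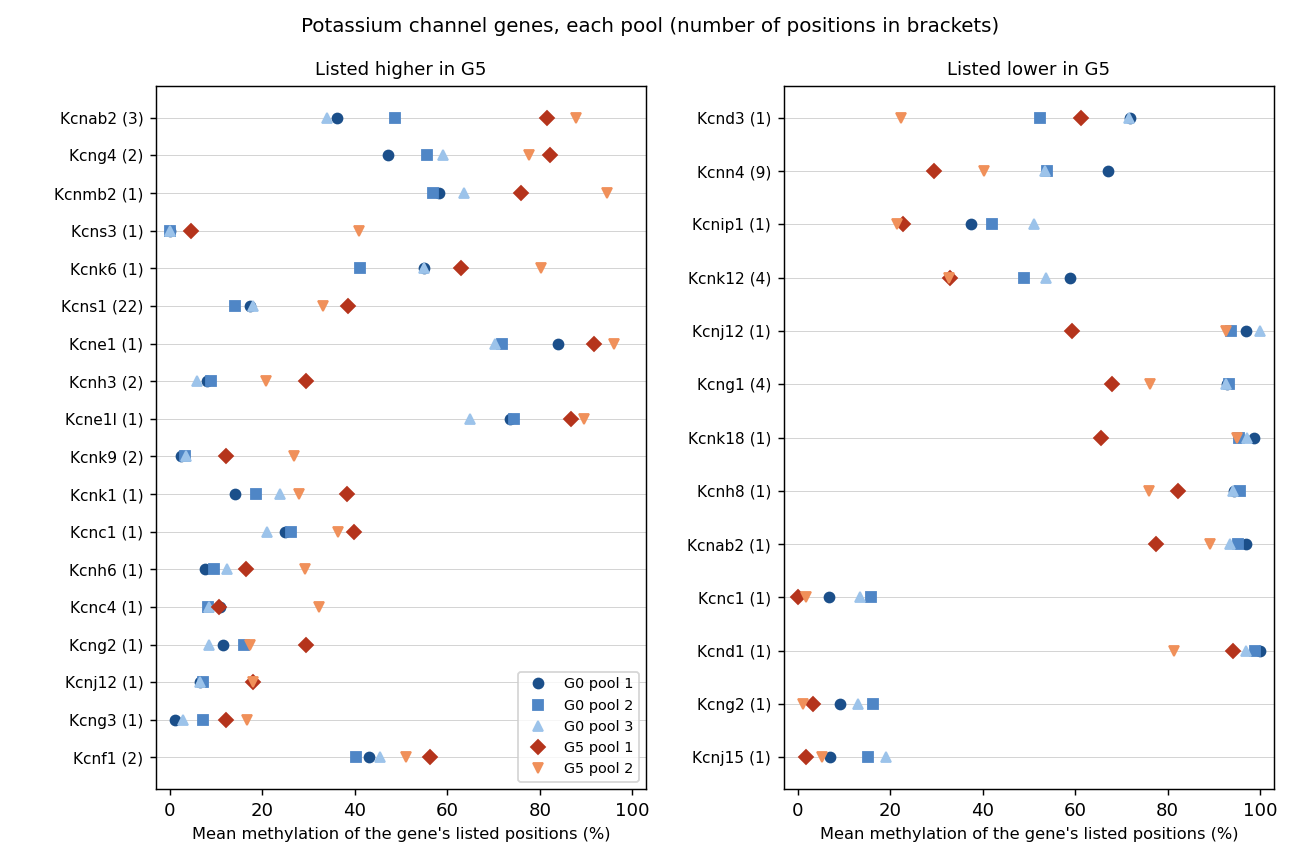
Mean methylation (x axis, %) of each pool over the listed positions of a gene, for 18 genes with higher positions (left) and 13 with lower positions (right), ordered by the difference of group means. Points are pools, and brackets give the number of positions. Kcnab2 stands apart on the left at 36.1%, 48.7% and 33.9% in G0 and 81.5% and 87.7% in G5. Its mean joins 1 CpG with a difference of 86.1 points and a distant pair with a difference of 24.6 points. The G5 pools of Kcns3 (left) and Kcnk18 (right) lie far from each other.

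The listed difference of many genes with few positions leaned on 1 G5 pool. Besides those named above, it moved by more than 1.5 times without G5 pool 1 in Kcnk1, to 9.14 points from 14.3, at the higher Kcng2 position, to 5.31 from 11.4 (and to 17.4 without G5 pool 2), and at the lower Kcnab2 position, to -6.00 from -11.8. In Kcnc4 it was 1.55 points without G5 pool 2 and 23.2 points without G5 pool 1, against 12.4 with both. In Kcnd3 it was -4.04 and -42.9 points, against -23.5, and in Kcnd1 -4.49 and -17.3 points, against -10.9. Without G5 pool 2 it came to 6.65 from 13.1 in Kcnh6, to 12.6 from 21.3 in Kcnk6, to 8.99 from 16.4 in Kcnk9 and to 16.4 from 25.7 in Kcnmb2. Kcnk18 stood at -2.01 points without G5 pool 1 and -31.4 points without G5 pool 2, against -16.7 with both. Leaving out either G5 pool moved the gene means of Kcns1 and Kcnn4 by less than 1.5 times. This does not hold for each part of these genes, as the order of the G5 pools turned between parts. The G5 pools were 26.0 points apart in the Kcnn4 intron and 10.7 points apart over all its positions. In Kcns1 they were 12.9 and 11.2 points apart in the longer and the shorter stretch, and 5.98 points apart over both.

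Other genes of membrane excitability, a list of sodium, calcium, cyclic nucleotide, TRP, chloride and purinergic channels, calcium release channels, sodium pump subunits and Dpp6 and Dpp10, had 34 listed positions in 21 genes. Of these 20 in 11 genes were higher, with 11 past limma, and 14 in 13 genes were lower, with 2 past limma, and 3 genes were in both tables. Over all listed positions 33.2% of the higher and 33.0% of the lower ones passed, and the difference of the list from these shares was not tested. The most positions, 3 each, were in Trpc5 and Trpm3, cation channels of the TRP family, both higher. The G0 pools of Trpc5 averaged 35.7%, 30.9% and 29.5% and the G5 pools 69.3% and 50.2%, and limma passed 2 of 3. The G0 pools of Trpm3 averaged 77.6%, 68.7% and 80.1% and the G5 pools 86.7% and 90.7%, and limma passed 0 of 3. No gene of that list had as many positions as Kcns1 or Kcnn4.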

How the data were processed

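Reduced representation bisulfite sequencing was done on genomic DNA of the sorted cells. The authors used Bismark 0.7.11 with Bowtie on mm10, per the submitters' processing notes, and methylKit with Fisher's exact test for the comparison, per the series' design. Other versions and a coverage minimum are not stated there. Per the file headers, the authors deposited for each position the percent methylation of 5 samples, a p-value and q-value, a difference in percentage points used here as a score, annotation flags, and the nearest start site. The design text gives a promoter window of 1 kb upstream to 500 bp downstream, while the flag reached beyond it in the files.

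Positions were checked against GRCm38. All 4688 lay on CpGs when counted from 0, so a printed position is the file's own, 1 less than a browser shows, and sequence ranges are counted from 1. The 81 potassium channel positions were 81 distinct CpGs. RefSeq annotation of GRCm38.p6 gave exons and spanning genes. Sequences come from that RefSeq assembly.

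Group means ± SD were taken over pools after averaging a gene's listed positions within each pool. All listed positions entered 1 limma fit (version 3.58.1 in R 4.3.3) of the percent values. This step was also tested on simulated data. There most positions had no difference, none was selected for one, and both groups had the G0 spread, unlike the listed positions. The p-values set the difference of group means against the spread of pools within groups. All positions were listed for that difference in these same pools, so the adjusted p-values do not give a share of false calls. With 10 splits of 3 and 2 pools, a permutation test of 1 value cannot go below 0.1 and was not run. Methylated read counts were not used here, so no count model was run. Python 3.11.15, pandas 2.3.3, pysam 0.24.0 and matplotlib 3.10.9 served for the rest.

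Some members and sequences are not reported here, though counts over all members include them. Of the named members, genes with 3 or more positions in a direction, with positions in both directions or at a promoter have the levels of every pool. The members and lists were chosen with earlier results of these data known. Alternatives were each pool left out, pool number as a block, a logit-like scale, limma with a trend, stricter thresholds, each CpG once, positions within 10 kb, and the authors' difference. Groups of 3 and 2 pools are too small for an outlier test.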

Additional observations from a re-analysis of the deposited data

How the results depend on the processing

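The counts of calls by limma depended most on the number of G0 pools, over all listed positions as well. With a pool left out they ranged from 0 to 20 among higher and from 0 to 13 among lower positions, against 18 and 10 with all pools; with a G5 pool left out, the lone G5 pool is assumed to vary like the G0 pools. With pool number as a replicate block over pools 1 and 2 of each group, limma called 0 higher and 0 lower positions, while 16 and 13 had an unadjusted p under 0.05. The same 4 pools without the block, an alternative chosen after seeing the data, also gave 0 and 0, while 22 and 13 had an unadjusted p under 0.05. Deviations from the group mean of pools that share a number were correlated at 0.0124 and 0.0476 over the listed positions. G0 pool 3 with G5 pool 1 gave 0.0372. The deviations of the 2 G5 pools mirror each other, so these values cannot tell whether same-numbered pools share more than a number. At a q-value under 0.001 there were 11 higher calls among 24 positions, against 60% of all listed higher ones, and within 10 kb of a start site 5 lower calls among 18, against 37% of all lower ones; fewer positions were tested. At a q-value under 0.001 groups were apart at 19 of 24 higher and 12 of 12 lower positions, against 90.6% and 85.6% of all listed ones. At differences of at least 20 points they were apart at 19 of 21 and 10 of 12, against 90.6% and 87.9%, and within 10 kb at 15 of 18 lower positions, against 86.9%. With a pool left out, the counts apart ranged from 43 to 47 of 50 higher and from 27 to 30 of 31 lower positions. Over all listed positions the shares apart then ranged from 89.1% to 94.1% and from 86% to 94.3%. With fewer pools to separate, a count apart cannot fall, so these counts are not a result about potassium channel genes. The Kcns1 difference was 22.2 points at a q-value under 0.001 and 23.8 points at differences of at least 20 points, by construction of the stricter thresholds, and 16.6 to 22.1 points with a pool left out. Kcnn4 ranged from -28.7 to -17.9 points with a pool left out. The logit-like scale, limma's trend and each CpG once kept the counts within 1.5 times. Depth per position is unknown, so its part in any level was not tested.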
